A study of Mus musculus with 6 samples.

Results

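Genes of aromatase, estrogen receptors, estrogen-related receptors and coregulators, 10 in all, were read out of RNA sequencing of cortical cell cultures. The cultures came from mouse fetuses and were treated with vehicle or with the fatty acid 10HDA. The genes were chosen by name, as the 10 rows of the count table whose Ensembl identifiers map to Cyp19a1, Esr1, Esr2, Gper1, Esrra, Esrrg, Ncoa1, Ncoa2, Ncoa3 and Nrip1, out of 43346 genes listed. All 10 were in the table. The vehicle group was given DMSO, the solvent, and the treated group 1 mM 10HDA, with 3 libraries each. Cells of both groups came from the cortex of fetuses at gestational day 15.5, and the labels give every sample the strain Cyp19-EGFP and the genotype SRY+. In that strain a bacterial artificial chromosome carries an additional aromatase gene with the sequence of the fluorescent protein EGFP in it, so that reads of Cyp19a1 from the transgene and from the mouse's own gene cannot be told apart. The methods name C57BL/6 embryos for this experiment, and which of these strains was used cannot be told from the counts of Cyp19a1. The labels place 1 library of each treatment in each of cultures 1, 3 and 4, and do not say how many fetuses went into a culture.

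Aromatase, the product of Cyp19a1, converts androgens into estrogens, and in the brain it is made by some neurons. Estrogens bind the nuclear receptors ERα (Esr1) and ERβ (Esr2), which act on DNA as dimers, and the membrane receptor GPER1 (Gper1), which signals through G proteins. The estrogen-related receptors, such as ERRα (Esrra) and ERRγ (Esrrg), resemble them in sequence but bind no estrogen, and they drive genes of mitochondria and energy use. Bound receptors recruit the steroid receptor coactivators encoded by Ncoa1, Ncoa2 and Ncoa3, which bring histone acetyltransferases to a gene, or the corepressor encoded by Nrip1, which binds the receptors in the presence of ligand. The study treats 10HDA as a possible ligand of the estrogen receptors, and the comparison asks whether the genes of this machinery are present in the cultures and whether their transcripts differ between 10HDA and vehicle.

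The libraries held from 9144736 to 13367194 counts on genes, so that 3 counts in a library correspond to 0.224 to 0.328 counts per 1000000 counts (CPM). Values per gene below are CPM after scaling by the TMM method of edgeR. The exception is the CPM of summed counts with Poisson intervals (Cyp19a1, Esr2 and Gper1), which are per total counts without this scaling. Levels are compared between genes only after division by the gene length in the count table (CPM per kb). The 4 Y-linked genes looked up summed to 9.07 and 9.30 CPM in the vehicle and 10HDA libraries of culture 1, against 97.8 to 136 CPM in the other 4 libraries, although all are labelled SRY+. The Y-linked level of culture 1 was thus low, though not absent, beside cultures with the same label. With the number of fetuses per culture unknown, a wrong label and a culture of mixed sex cannot be told apart. Each change of a member is also given without culture 1. The 10 markers of neurons summed to 9324 to 9805 CPM with vehicle and to 7779 to 8753 CPM with 10HDA, and 0 of the 10 passed an adjusted p of 0.1, whereas 4 fell with culture as a replicate block, a term for culture in the fit. The microglia markers summed to 0.811 to 1.23 CPM over 8 genes, with Tmem119 at 0 counts throughout. The 12 astrocyte markers summed to 1352 to 1652 CPM with vehicle and to 1039 to 1270 CPM with 10HDA, and 5 of the 11 tested fell (6 with the block). Sums were also lower with 10HDA for 10 vascular markers (18.4 to 19.7 CPM with vehicle, 8.69 to 11.5 with 10HDA, 1 of 1 tested fell) and for 4 fibroblast markers (9.94 to 12.2 and 6.34 to 6.49 CPM, 0 tested). Of the oligodendrocyte markers 1 of 6 tested fell (3 with the block), and of the interneuron markers 0 of 9 did (4 with the block). Markers of dividing cells summed to 206 ± 20.9 CPM with vehicle and 206 ± 32.3 CPM with 10HDA (SD, n = 3 each), and 0 of 4 tested passed in either design. With the block 1 of 6 radial glia markers rose and 1 fell, and 1 of 8 excitatory neuron markers fell, each list with 0 without it. Of all genes tested 0.627% passed without the block and 8.98% with it. The part of these shifts in the values below was not tested, and in whole cultures fewer cells of a type cannot be told apart from less RNA per cell.

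Promoter sequence is given for the members with the highest and the lowest level per kb, Ncoa1 and Cyp19a1, to show how differently the starts of these genes are built. The sequences are from RefSeq (GRCm38.p6), 5′ to 3′ on the strand of the gene, and are the 200 bases that end just before its annotated start. For Cyp19a1 this is chr9:54268165-54268364 on the minus strand, at the most distant of its 3 listed starts, and for Ncoa1 it is chr12:4477183-4477382, also on the minus strand. In Cyp19a1 the capitals mark the core motif of nuclear receptors, AGGTCA, read on the other strand, which lies 81 bases before the start. In Ncoa1 they mark the GC box GGGCGG, which binds factors of the Sp family and is found 6 times between 28 and 109 bases before the start.
Cyp19a1: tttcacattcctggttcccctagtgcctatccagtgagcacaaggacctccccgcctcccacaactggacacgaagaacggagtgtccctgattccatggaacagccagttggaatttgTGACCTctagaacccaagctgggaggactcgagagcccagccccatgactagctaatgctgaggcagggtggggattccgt
Ncoa1: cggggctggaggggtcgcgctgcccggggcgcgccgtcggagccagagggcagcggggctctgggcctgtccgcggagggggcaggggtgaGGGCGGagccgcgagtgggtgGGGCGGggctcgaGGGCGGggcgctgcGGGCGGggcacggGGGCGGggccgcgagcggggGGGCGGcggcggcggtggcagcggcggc
The table of promoters holds windows from 250 bases before to 50 bases after a start, 32851 in all, and 8 of the 10 members had at least 1 (15 windows). Ncoa2 and Ncoa3 were not matched. The core motif AGGTCA, sought on both strands, was in 16.3% of all windows and in 1 of the 15, the one of Cyp19a1 shown here. The full estrogen response element, which is GGTCANNNTGACC, was in 0.070% of all windows, and the longer element of the estrogen-related receptors, TCAAGGTCA, which contains the core motif, was in 0.423%. Each of these 2 was in 0 of the 15. GC boxes were in 35.7% of all windows and in 6 of the 15, those of Ncoa1, Esrra, Gper1, 1 of the 2 of Nrip1 and 2 of the 4 of Esrrg. The window of Ncoa1 had a GC content of 84.7%, above that of 99.8% of all windows (median 52.7%), whereas the 3 windows of Cyp19a1 had 54.7%, 38.3% and 37.7%. These matches describe letters within short windows, and binding was not measured.

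Transcripts of aromatase and of ERβ were at the limit of what was counted. Cyp19a1 (ENSMUSG00000032274.8, chr9:54165937-54268110 of GRCm38, minus strand) had 0, 0 and 0 counts in the vehicle libraries of cultures 1, 3 and 4 and 1, 1 and 0 in the 10HDA libraries. The 0 counts with vehicle allow a level of up to 0.0987 CPM, and the 2 counts with 10HDA correspond to 0.0594 CPM (exact Poisson 95% interval 0.0072 to 0.215, counting error only). Esr2 (ENSMUSG00000021055.9, chr12:76120419-76177259, minus strand) had 0, 4 and 2 counts with vehicle and 0, 0 and 0 with 10HDA. Its 6 vehicle counts correspond to 0.161 CPM (0.0589 to 0.350), and the 0 counts with 10HDA allow up to 0.110 CPM. The intervals of the treatments overlapped for both genes. No fold change is given for either, since both treatments had a mean of 2 counts or fewer per library, under the 3 counts taken as the floor.

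**Figure D1:**
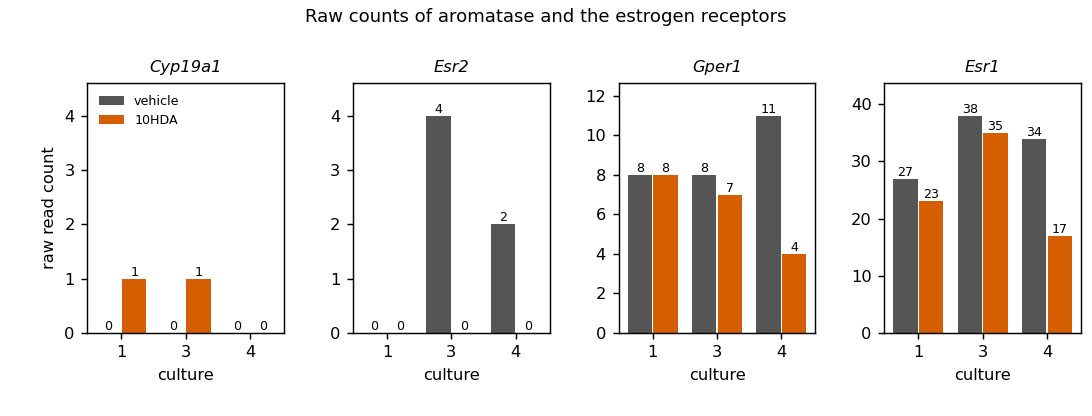
Raw read counts (vertical axes, each starting at 0 and each with its own scale) of Cyp19a1, Esr2, Gper1 and Esr1 in cultures 1, 3 and 4, with vehicle in grey and 10HDA in orange, 1 bar per library. Cyp19a1 had at most 1 count and Esr2 at most 4 in a library, while Esr1 had 17 to 38.

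The membrane receptor and ERα were counted in every library, at low levels. Gper1 (ENSMUSG00000053647.4, chr5:139423151-139427800, plus strand) had 8, 8 and 11 counts with vehicle in cultures 1, 3 and 4, and 8, 7 and 4 with 10HDA. The summed counts of 27 and 19 correspond to 0.723 CPM (exact Poisson 95% interval 0.476 to 1.05) and 0.565 CPM (0.340 to 0.882), and these intervals overlapped. Esr1 (ENSMUSG00000019768.12, chr10:4611593-5005614, plus strand) had 27, 38 and 34 counts with vehicle and 23, 35 and 17 with 10HDA. In CPM these were 2.47, 2.94 and 2.89 with vehicle (2.77 ± 0.256, SD, n = 3) and 2.02, 2.58 and 1.91 with 10HDA (2.17 ± 0.361, SD, n = 3). The 10HDA library was the lower one in 3 of 3 cultures, but the groups overlapped, since the highest 10HDA library, that of culture 3, lay above the vehicle library of culture 1.

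Esr1 lay under the filter of the main comparison, 10 CPM in at least 3 libraries, so its change was read from the same fit with a filter of 1 CPM. There 78 of 15311 genes passed (0.509%), and Esr1 was not among them, with a log2 fold change for 10HDA against vehicle of -0.32 (standard error 0.24, adjusted p = 0.66, quasi-likelihood test of edgeR, Benjamini-Hochberg adjusted). The 95% interval, from -0.85 to 0.21, spans folds from 0.553 to 1.16. Without culture 1 the log2 fold change of Esr1 was -0.34.

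The estrogen-related receptors differed widely in level. Esrra (ENSMUSG00000024955.9, chr19:6910977-6921813, minus strand) had 27.5, 25.8 and 23.1 CPM with vehicle in cultures 1, 3 and 4 (25.5 ± 2.21, SD, n = 3) and 31.1, 31.3 and 24.7 CPM with 10HDA (29.0 ± 3.75, SD, n = 3). It was the 1 member among those tested with a higher level under 10HDA in 3 of 3 cultures, by log2 ratios of 0.18, 0.27 and 0.094. The groups overlapped through the 10HDA library of culture 4. Over the 6 libraries the log2 fold change of Esrra was 0.19 (standard error 0.14, 95% interval -0.11 to 0.49, adjusted p = 0.64, quasi-likelihood test of edgeR), and 0.22 without culture 1. Exons of Trmt112 on the other strand and of the microRNA gene Mir6990 on the same strand overlap those of Esrra, and the strand setting of the counting is not given in the sources used here.

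Esrrg (ENSMUSG00000026610.9, chr1:187608791-188214885, plus strand) had 2.93, 5.41 and 4.59 CPM with vehicle (4.31 ± 1.27, SD, n = 3) and 3.51, 3.24 and 4.04 CPM with 10HDA (3.60 ± 0.403, SD, n = 3). The vehicle libraries thus enclosed all 10HDA libraries. The log2 ratio within a culture was 0.25 in culture 1 but -0.71 and -0.18 in cultures 3 and 4. In the fit with the filter of 1 CPM the log2 fold change of Esrrg was -0.27 (standard error 0.25, 95% interval -0.81 to 0.27, adjusted p = 0.72, quasi-likelihood test of edgeR), with -0.46 without culture 1 and -0.01 without culture 3.

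Per kb of gene, the coactivators and the corepressor lay above Esrrg and the estrogen receptors in every library. Only Ncoa1 had a higher mean per kb than Esrra. Ncoa1 (ENSMUSG00000020647.9, chr12:4247362-4477182, minus strand), the founding member of the steroid receptor coactivators, had 134, 158 and 184 CPM with vehicle in cultures 1, 3 and 4 (159 ± 25.2, SD, n = 3) and 130, 127 and 156 CPM with 10HDA (138 ± 15.7, SD, n = 3). In both treatments culture 4 had the highest level, and the vehicle library of culture 1 lay between 10HDA libraries. The log2 fold change of Ncoa1 was -0.21 (standard error 0.13, 95% interval -0.49 to 0.080, adjusted p = 0.60, quasi-likelihood test of edgeR). It was the largest in size of the 5 members that passed the filter of 10 CPM, but Esrra exceeded it with other scalings, as with DESeq2's size factors (0.20 for Esrra and -0.19 for Ncoa1) and with library size alone (0.27 and -0.13). With culture as a replicate block it was -0.20, with an interval of -0.39 to -0.0058 and an adjusted p of 0.24 from the same test. It was -0.26 without culture 1, -0.067 with vehicle of culture 4 dropped and -0.30 with 10HDA of culture 4 dropped. An exon of 4921501I09Rik on the other strand overlaps those of Ncoa1.

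Ncoa2 (ENSMUSG00000005886.10, chr1:13139105-13374083, minus strand), a coactivator that also serves the glucocorticoid receptor, had 89.5, 133 and 146 CPM with vehicle (123 ± 29.4, SD, n = 3) and 111, 102 and 126 CPM with 10HDA (113 ± 12.0, SD, n = 3). The lowest and the highest of the 6 libraries were both vehicle libraries. Its log2 fold change was -0.12 (standard error 0.16, 95% interval -0.48 to 0.23, adjusted p = 0.80, quasi-likelihood test of edgeR) and -0.27 without culture 1. Ncoa3 (ENSMUSG00000027678.13, chr2:165992636-166073242, plus strand), known as a gene amplified in breast cancer, had 60.4, 73.0 and 74.8 CPM with vehicle (69.4 ± 7.86, SD, n = 3) and 66.1, 66.4 and 68.6 CPM with 10HDA (67.0 ± 1.4, SD, n = 3). The 10HDA libraries lay close together, inside the range of the vehicle libraries. Its log2 fold change was -0.05 (standard error 0.11, 95% interval -0.29 to 0.19, adjusted p = 0.89 from the same test) and -0.11 without culture 1. Exons of Sulf2 on the other strand overlap those of Ncoa3.

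Nrip1 (ENSMUSG00000048490.9, chr16:76287400-76373827, minus strand), the corepressor that is itself induced by estrogen in breast cancer cells, had 69.6, 95.6 and 103 CPM with vehicle (89.4 ± 17.5, SD, n = 3) and 74.1, 70.3 and 91.8 CPM with 10HDA (78.8 ± 11.5, SD, n = 3). The vehicle library of culture 1 was the lowest of the 6 libraries, and the vehicle libraries of cultures 3 and 4 were the highest. Its log2 fold change was -0.19 (standard error 0.15, 95% interval -0.52 to 0.15, adjusted p = 0.68, quasi-likelihood test of edgeR) and -0.28 without culture 1. It was -0.055 when vehicle of culture 4 was dropped and -0.31 when vehicle of culture 1 was.

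Of the 10 members, 5 passed the filter of 10 CPM (Esrra, Ncoa1, Ncoa2, Ncoa3 and Nrip1), and 0 of these passed an adjusted p of 0.1. At an unadjusted p under 0.05 the number was 0 in the quasi-likelihood test of edgeR, in DESeq2's Wald test and in limma-voom. Over the whole table, 66 of 10520 genes passed (0.627%), 21 higher and 45 lower. With culture as a block 945 genes passed (8.98%), again 0 of the 5, with 1 of them, Ncoa1, at an unadjusted p under 0.05. At either share, 0 of 5 passing is no result about the members. The groups overlapped in all of the 5, and among all genes tested 13.4% had groups that did not overlap, a share at which 0 of 5 is no result about the members. The median log2 fold change of the 5 was -0.12, beside -0.0095 over all genes tested, and this median was -0.26 without culture 1. The intervals leave room for moderate changes. On a linear scale they reach from 0.929 to 1.404 for Esrra and from 0.712 to 1.06 for Ncoa1.

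Culture 1 differed from the others in the direction of several members. The log2 ratios of 10HDA to vehicle in cultures 1, 3 and 4 were 0.30, -0.38 and -0.21 for Ncoa2. They were 0.13, -0.14 and -0.12 for Ncoa3. For Nrip1 they were 0.091, -0.44 and -0.16. In each of these genes, and in Esrrg, culture 1 lay above 0 and both other cultures below it. The same signs were found outside the members, as in the coregulator genes Ep300, Med1, Ncor1 and Spen, but not in Crebbp or Ddx5. The pattern is therefore not particular to the members, and its share over all genes tested was not counted. Ncoa1 was below 0 in all 3, at -0.038, -0.31 and -0.24, with culture 1 nearest to 0. Esr1, at -0.27, -0.18 and -0.56, and Esrra did not share this pattern. In Ncoa1, Ncoa2, Ncoa3, Nrip1, Esrrg and Esr1 the vehicle library of culture 1 was the lowest of the 3 vehicle libraries. This too was found outside the members, as in Crebbp, Nsd1 and Spen, but not in Ddx5, Kat2a or Hsp90ab1. Its share over all genes tested was not counted either. The part of culture 1's low Y-linked level in these patterns was not tested.

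**Figure D2:**
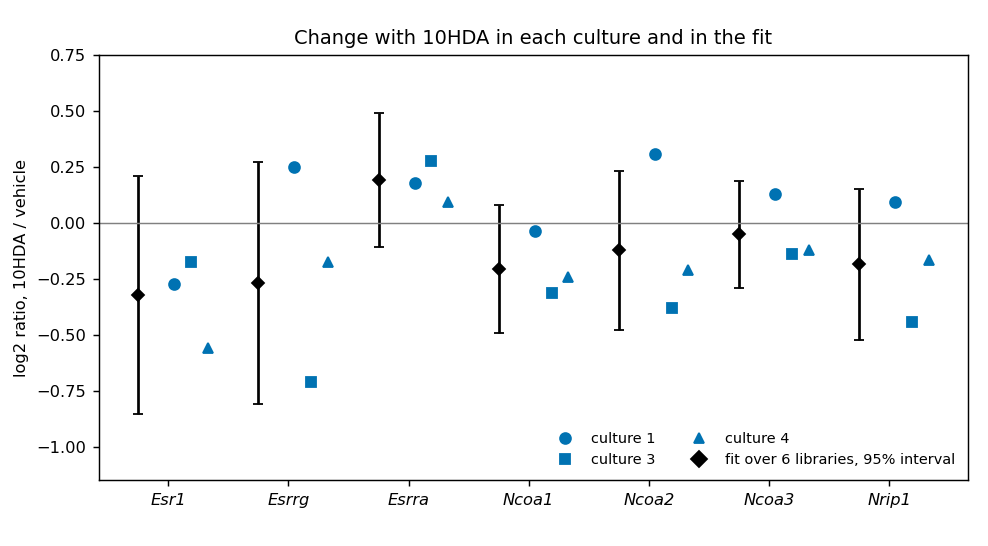
Log2 ratio of 10HDA to vehicle (vertical axis) for the 7 members over 1 CPM. Blue points are the cultures, black diamonds the fitted log2 fold changes over 6 libraries with their 95% intervals (filter of 1 CPM for Esr1 and Esrrg, 10 CPM for the others). All 7 intervals include 0, and in Ncoa2, Ncoa3, Nrip1 and Esrrg culture 1 lies above 0 and cultures 3 and 4 below.

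Per kb of gene, the levels fell into separate tiers. Over the 6 libraries Ncoa1 had 20.2 ± 3.002 CPM per kb (SD, n = 6), followed by Esrra with 10.7 ± 1.32, Ncoa3 with 8.64 ± 0.660, Ncoa2 with 7.52 ± 1.33 and Nrip1 with 7.34 ± 1.26. Ncoa1 was separated from Esrra in all 6 libraries. From Esrra down to Nrip1 the ranges of neighbours overlapped, although Ncoa3 was above Ncoa2 in 6 of 6 libraries, Esrra above Ncoa3 in 5 and Ncoa2 above Nrip1 in 5. Nrip1 and Esrrg did not overlap, and Esrrg had 0.637 ± 0.149 CPM per kb. Below it came Gper1 with 0.260 ± 0.0682 and Esr1 with 0.181 ± 0.0316, whose ranges overlapped although Gper1 was the higher one in 6 of 6 libraries. Esr2, with 0.0237 ± 0.0390, and Cyp19a1, with 0.0113 ± 0.0177, were both under the range of Esr1 and overlapped each other. The ratio of Ncoa1 to Esr1 per kb was 92 to 152 across the libraries. Among the 10520 genes tested, Ncoa1 was above 67.4% in level per kb, Esrra above 44.8% and Nrip1 above 30.5%. Division by length assumes that reads fell along the whole gene model in the table, which was not tested.

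**Figure D3:**
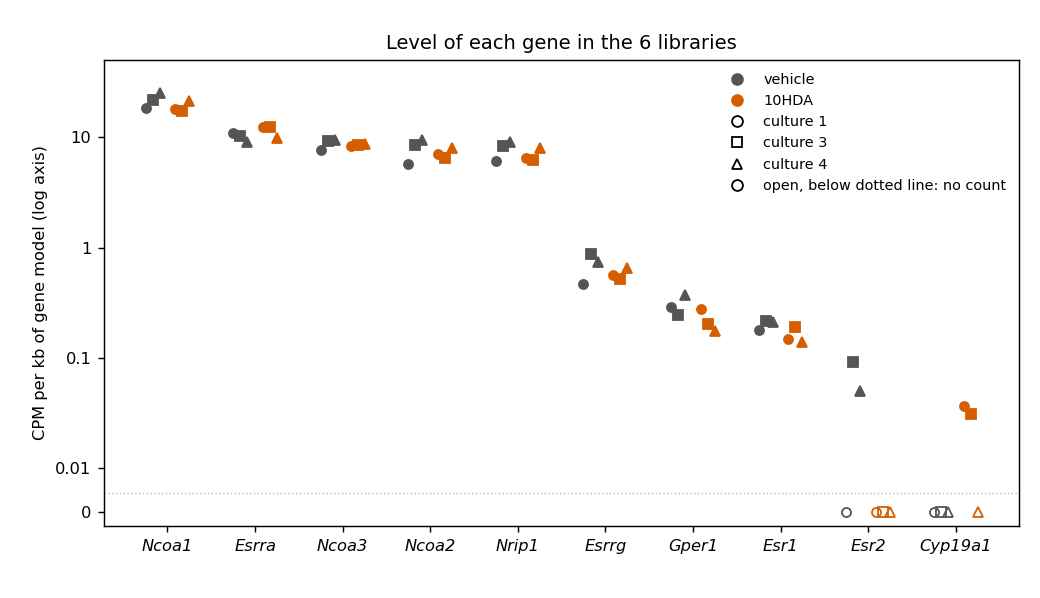
CPM per kb (log axis) of the 10 members in each of the 6 libraries, ordered by their mean, with vehicle in grey, 10HDA in orange and a symbol for each culture. Open symbols under the dotted line are libraries with 0 counts, which occur for Esr2 and Cyp19a1. The coregulators and Esrra lie more than 5 CPM per kb, and Esrrg and the estrogen receptors lie under 1.

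Other genes of the pathway were taken from 7 lists with 125 genes, of which 123 were in the table and 89 were tested. Of the 89, 1 passed the threshold (1.12%, beside 0.627% over all genes), and with culture as a block 5 passed (5.62%, beside 8.98%), 2 higher and 3 lower. The gene that passed was Stc2, which encodes the secreted glycoprotein stanniocalcin and is induced by estrogen in breast cancer cells and by endoplasmic reticulum stress. Stc2 had 36.1, 34.4 and 34.3 CPM with vehicle in cultures 1, 3 and 4 and 64.0, 46.4 and 71.0 CPM with 10HDA. It rose in 3 of 3 cultures, and the groups did not overlap. The log2 fold change was 0.79 (standard error 0.15, adjusted p = 0.053, and 9.6e-05 with culture as a block, quasi-likelihood test of edgeR). In the design with no block, Stc2 did not pass when vehicle of culture 3, vehicle of culture 4 or 10HDA of culture 1 was dropped (adjusted p = 0.19, 0.23 and 0.37 by the same test). The same held when culture 1, 3 or 4 was dropped whole (adjusted p = 0.40, 0.14 and 0.17 by the same test). The log2 fold change itself stayed near the value over all libraries, at 0.78, 0.94 and 0.65 without cultures 1, 3 and 4.

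Among the 26 genes known to respond to estrogen, mostly from breast cancer cells, 16 were tested, 1 rose and 0 fell, with a median log2 fold change of 0.055. Adora1, the adenosine receptor gene, went from 66.5 ± 11.04 CPM (vehicle) to 47.9 ± 4.96 CPM (10HDA, SD, n = 3 in each group) and passed only with the culture block among these 2 designs (adjusted p = 0.26 without it and 0.0058 with it, quasi-likelihood test of edgeR). Igfbp4, a binding protein of insulin-like growth factors, had a log2 fold change of -0.27 and was not past the threshold in either. Pgr and Greb1, the most used reporters of ERα, were looked at after their values were seen. Pgr, the progesterone receptor gene, had 7.42, 9.36 and 8.41 CPM with vehicle and 8.34, 6.64 and 6.39 with 10HDA, which overlapped. Greb1 had 9, 11 and 13 counts with vehicle and 9, 8 and 12 with 10HDA, or 0.590 to 1.35 CPM.

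The other genes of the machinery showed no call without a block. Of 15 other nuclear receptors 8 were tested, with a median of 0.031, and the smallest p-values were those of Rara, Nr2f6 and Rxrb with log2 fold changes of -0.24, 0.30 and 0.14. Of 26 enzymes of steroid synthesis and breakdown 10 were tested, with a median of -0.0063. Of these, Srd5a1, which reduces testosterone to dihydrotestosterone, had -0.30, its relative Srd5a3 had 0.31 and Hsd17b12 had 0.24. Cyp17a1, which makes the androgens that aromatase uses, had 0 or 1 counts in each library, and was looked up after its counts were seen. Among 25 other coactivators 22 were tested and 17 were below 0, with a median of -0.086. The smallest p-values there were those of Smarca4, the chromatin remodelling ATPase, with -0.17, Ncoa6 with -0.23 and the acetyltransferase gene Kat2b with 0.19. Of 17 other corepressors all were tested and 13 were below 0, with a median of -0.10, and Safb, Safb2 and Bcor had -0.18, -0.15 and -0.22. Over all genes tested 5486 were below 0 and 5034 above.

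Receptor chaperones and membrane signalling each held genes that passed with the culture block, 1 of 10 and 2 of 7, beside 8.98% of all genes. All 10 chaperones were tested, with a median of -0.067, and Hsp90ab1, which holds unliganded steroid receptors in a form that binds hormone, went from 1968 ± 200 CPM (vehicle) to 1601 ± 99.04 CPM (10HDA, SD, n = 3 in each group). Its log2 fold change was -0.30 (adjusted p = 0.45, and 0.071 with culture as a block, quasi-likelihood test of edgeR). Cdc37 and Hspa8 had -0.24 and -0.23, lower in 3 of 3 cultures each, and did not pass in either design. Of 8 genes that link membrane receptors to kinases 7 were tested, with a median of -0.066. Cav1, the caveolin that holds receptors at the membrane, had a log2 fold change of -0.52 (adjusted p = 0.27, and 0.024 with the block, same test). Egfr, the receptor of epidermal growth factor, had 0.41 (adjusted p = 0.45, and 0.010 with the block, same test). Bcar1 had -0.16 and did not pass in either.

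**Figure D4:**
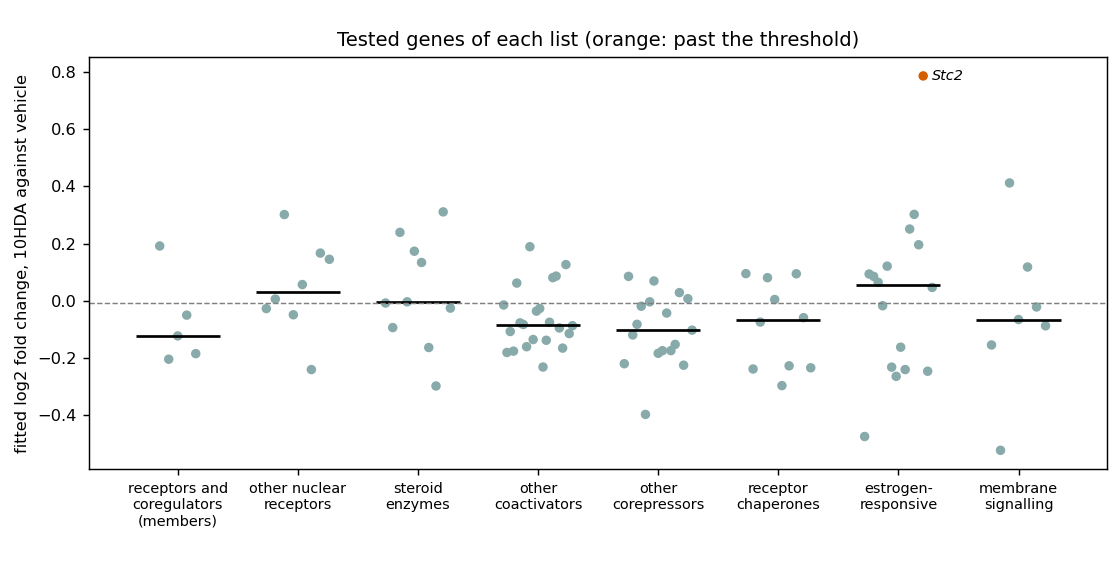
Fitted log2 fold change, 10HDA against vehicle (vertical axis), of each tested member and of the tested genes of the 7 other lists, 1 point per gene, with the median of each list as a black bar and the median of all genes tested as a dashed line. Stc2, in orange, is the only point past the threshold, and the medians of the lists lie between -0.12 and 0.055.

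The genes whose pattern over the 6 libraries was most like that of Ncoa1, which had the largest fitted change in size among the 5 members over 10 CPM in the main comparison, were Rbm25, Zc3h13, Dync1h1, Ephb2 and Slx4. Likeness was the root mean square difference of log2 CPM over the 6 libraries, after each gene was centred on its mean, and it was 0.0208 for Rbm25 to 0.0292 for Slx4 among 10520 genes. Their log2 fold changes were -0.19, -0.23, -0.23, -0.20 and -0.24, and none of the 5 passed the threshold (adjusted p from 0.54 for Slx4 to 0.65 for Rbm25, quasi-likelihood test of edgeR). As in Ncoa1, the level of each was highest in the vehicle library of culture 4. The 5 genes were picked for likeness to Ncoa1 over these 6 libraries. Their similar fold changes and shared highest library follow from that choice and are no separate result.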

How the data were processed

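RNA of 6 primary cortical cultures (3 vehicle, 3 10HDA) was analysed. According to the methods and the submitters' processing notes, the authors aligned untrimmed single-end reads of 50 bases from a strand-specific kit to mm10 with Subread 1.4.4 and assigned them to Gencode gene models with featureCounts. The values they deposited are raw counts, not normalized or filtered, and the gene length is a column of the same table. Symbols and coordinates are from GENCODE M21 (GRCm38), which matched 98% of the identifiers, a later release than the one counted. Sts and Prmt1 of the lists were not matched.

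Genes reaching 10 CPM in 3 or more libraries were compared with edgeR 4.0.16 (glmQLFit, glmQLFTest, TMM) in R 4.3.3, with no culture term, Benjamini-Hochberg adjustment over all genes tested and a threshold of 0.1, as the methods give. "Rose" and "fell" refer to this threshold. Intervals and standard errors of fold changes are from the same fit. The script was tested on simulated data. Members under 1 CPM are given as raw counts with exact Poisson 95% intervals. The members and lists were chosen with earlier results of these data known. The genes named are all 10 members, in each list every gene past the threshold and the 3 with the smallest p, and the 5 genes most like Ncoa1, the member over 10 CPM with the largest fitted change in the main comparison. Without a block the p-values measure the spread between libraries of the same treatment, which come from different cultures. With culture as a block they measure the spread that remains after differences between cultures are taken out. With 3 libraries against 3, a permutation test of a single value cannot reach 0.05, and none is given.

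The labels give a culture number, and each number has a vehicle and a 10HDA library, which pairs them. Across genes, deviations from the group means had correlations of 0.37, 0.24 and 0.62 within cultures 1, 3 and 4, against -0.45 to 0.18 between cultures. Deviations from a mean of 3 libraries push the values between cultures down, so part of this contrast is built in. The value of culture 3 lay near the 0.18 of vehicle of culture 1 with 10HDA of culture 3. The alternatives were culture as a block, DESeq2 1.42.0 (size factors and Wald test), upper quartile scaling, library size alone, limma-voom (limma 3.58.1), a filter of 1 CPM or none, a threshold of 0.05, and leaving out each library and each culture.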

Additional observations from a re-analysis of the deposited data

How the results depend on the processing

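The count of members past the threshold was 0 under every alternative run. With 0.627% of all genes passing in the main comparison and 8.98% with the block, 0 of the 5 members tested is no result about them. Over all genes, 66 passed in the main comparison, 945 with culture as a replicate block and 1148 with the block and a filter of 1 CPM. With no filter beyond 1 count 636 passed, with DESeq2's Wald test 170, and at a threshold of 0.05 43. The number ran from 0 (without the 10HDA library of culture 1) to 355 (without the 10HDA library of culture 4), and from 0 to 35 with both libraries of a culture left out. Of the 7 other lists 1 gene passed in the main comparison, 5 with the block, 5 with the block and the filter of 1 CPM, 3 with no filter and 0 at 0.05, and 0 to 2 when libraries or cultures were left out. The block changed no call of a member. Hsp90ab1, Adora1, Cav1 and Egfr passed with it and not in the main comparison. Without the filter, Adora1 and Egfr passed too.

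Signs turned in 6 of 499 values over 28 named genes, none of them past the threshold. Ncoa3 had 0.027 with library size alone and, with vehicle of culture 3 or of culture 4 dropped, 0.0083 or 0.025. Ncoa2 had 0.036 with vehicle of culture 4 dropped and 0.0070 without culture 3, and Nr2f6 had -0.043 without culture 3. The causes were not tested. The median of the 5 members tested, -0.12, ran from -0.28 (vehicle of culture 1 dropped) to 0.025 (vehicle of culture 4 dropped). Depth limits Cyp19a1, Esr2 and Gper1, for which 3 counts in a library are 0.224 to 0.328 CPM.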

Other observations

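Of 7 ratios of levels per kb between members, computed in each library, 1 did not overlap between the treatments. Among single genes tested 13.4% did not overlap, but the share over ratios of genes was not counted, so 1 of 7 is no result about the members. Esrra over Esr1 was 59.8, 47.3 and 43.0 in the vehicle libraries of cultures 1, 3 and 4 and 82.8, 65.2 and 69.6 in the 10HDA libraries, so it was higher with 10HDA in 3 of 3 cultures. It was singled out after its values were seen, has no test, and rests on 17 to 38 counts of Esr1 in a library. The ratio of Ncoa2 to Ncoa1 was 0.359 ± 0.0412 with vehicle and 0.383 ± 0.0122 with 10HDA, and that of Nrip1 to Ncoa1 was 0.359 ± 0.0273 and 0.365 ± 0.0116 (SD, n = 3 each), so both differed by less than the SD of the vehicle libraries. Ncoa3 to Ncoa1 was 0.408 ± 0.0277 and 0.454 ± 0.0402, and Esrra to Ncoa1 was 0.475 ± 0.115 and 0.618 ± 0.140 (SD, n = 3 each). Both of these were higher with 10HDA in 3 of 3 cultures, by more than the SD of the vehicle libraries, but the groups overlapped. Esrra alone was higher, and Ncoa1 and Esr1 alone lower, in 3 of 3 cultures. The ratios built on these genes therefore partly restate changes given above and are no separate observations.

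Receptors of other steroids, also chosen after their values were seen, were counted beside the low estrogen receptors. Nr3c1, the glucocorticoid receptor gene, had 20.9 ± 1.74 CPM with vehicle and 20.2 ± 1.23 with 10HDA, and Nr3c2, the mineralocorticoid receptor gene, 14.01 ± 0.910 and 14.7 ± 3.13 (SD, n = 3 each). The groups overlapped in both genes.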
